A study of Mus musculus with 4 samples.

Results

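The trophectoderm genes described here are 10 genes of the outer layer of the mouse blastocyst, taken by symbol from the 32592 genes of the deposited table. They are the transcription factor genes Cdx2, Tead4, Elf5, Gata2, Gata3 and Esx1, the receptor gene Fgfr2, the peptide hormone gene Sct, and the keratin genes Krt8 and Krt18. All 10 were found, and 9 had enough reads to be tested. RNA was sequenced from CCE cells, a feeder-free mouse embryonic stem cell line of strain 129/Sv grown with serum and leukemia inhibitory factor, in 2 libraries labelled Eif4a2 knockdown (KD 1 and KD 2, below the libraries labelled KD) and 2 labelled control (Control 1 and Control 2). The knockdown label covers cells infected with eIF4A2 shRNAs (sheIF4A2-2 and sheIF4A2-3), and the control label covers cells infected with shLuc or shEV. Cells of both groups had been selected for 3 days in 1 µg/mL puromycin and were collected on day 4.5. The labels do not say which hairpin went into which library or that the samples of a group were separate cultures. The p-values thus reflect only how far these samples spread, and that spread may be technical.

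The trophectoderm is the first lineage set aside in the mouse embryo, and its cells give rise to the placenta. In outer cells the DNA-binding factor TEAD4 works with the coactivator YAP to switch on Cdx2 and Gata3, while the inner cell mass, from which embryonic stem cells derive, keeps this programme low. Trophoblast stem cells answer to FGF4 from the inner cell mass through the receptor FGFR2, and ELF5, with CDX2 and EOMES, maintains their identity. Keratins 8 and 18 form the intermediate filaments of this first epithelium.

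The libraries held from 4604200 reads in Control 2 to 13681765 in Control 1, and 3 reads were worth 0.679 normalized counts (CPM after scaling of the library sizes) in Control 2 against 0.221 to 0.266 in the others. All 8 embryonic stem cell markers examined, among them Pou5f1 and Sox2, lay between 433 and 2305 normalized counts in every library. Eif4a2 itself measured 752.5 and 814 normalized counts in the libraries labelled KD and 530.6 and 379 in those labelled control, which goes against its label. Without the variance trend the limma adjusted p of this difference (log2 change 0.80) was 0.0581, against 0.014 with it. Directions below compare libraries by label and do not describe a loss of Eif4a2 RNA. Of 14890 genes tested with limma, 10.5% rose and 12.4% fell (1567 and 1851 genes, Benjamini-Hochberg adjusted p below 0.05). With library size as the only scaling 2152 rose and 996 fell, with upper-quartile scaling 1883 rose and 1329 fell, and the median log2 change of all genes was 0.10 with library size only against -0.01 as deposited.

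Of the 9 members tested, 3 rose (Sct, Fgfr2 and Esx1) and 1 fell (Tead4), so 3 of 9 stood against 10.5% of all genes that rose and 1 of 9 against 12.4% that fell. The other 5 did not pass. Sct cleared the filter on low counts only through the libraries labelled KD, so these counts describe the members and are no evidence of a shared direction. The median log2 change of the 9 was 0.34, against -0.01 over all genes tested. The libraries of the groups did not overlap for any of the 9, with 6 higher and 3 lower in the libraries labelled KD, against 66.8% of all genes without overlap (32.1% higher and 34.6% lower). Some of these gaps were narrow. Cdx2 measured 2.57 in KD 1 and 2.49 in Control 2, and Gata3 1.07 in KD 1 and 1.13 in Control 2. Both gaps were smaller than 1 read in Control 2, worth 0.226 normalized counts. Krt18 was also close, at 16.4 in KD 1 and 16.1 in Control 1. The summed level of the 10 members was close in all libraries, with 85.3 and 89.2 normalized counts for the libraries labelled KD and 87.6 and 83.7 for those labelled control. Tead4 weighs most in this sum, and its lower level offsets the higher levels of other members. In these bulk samples, fewer cells of a type and less RNA per cell cannot be told apart.

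**Figure D1:**
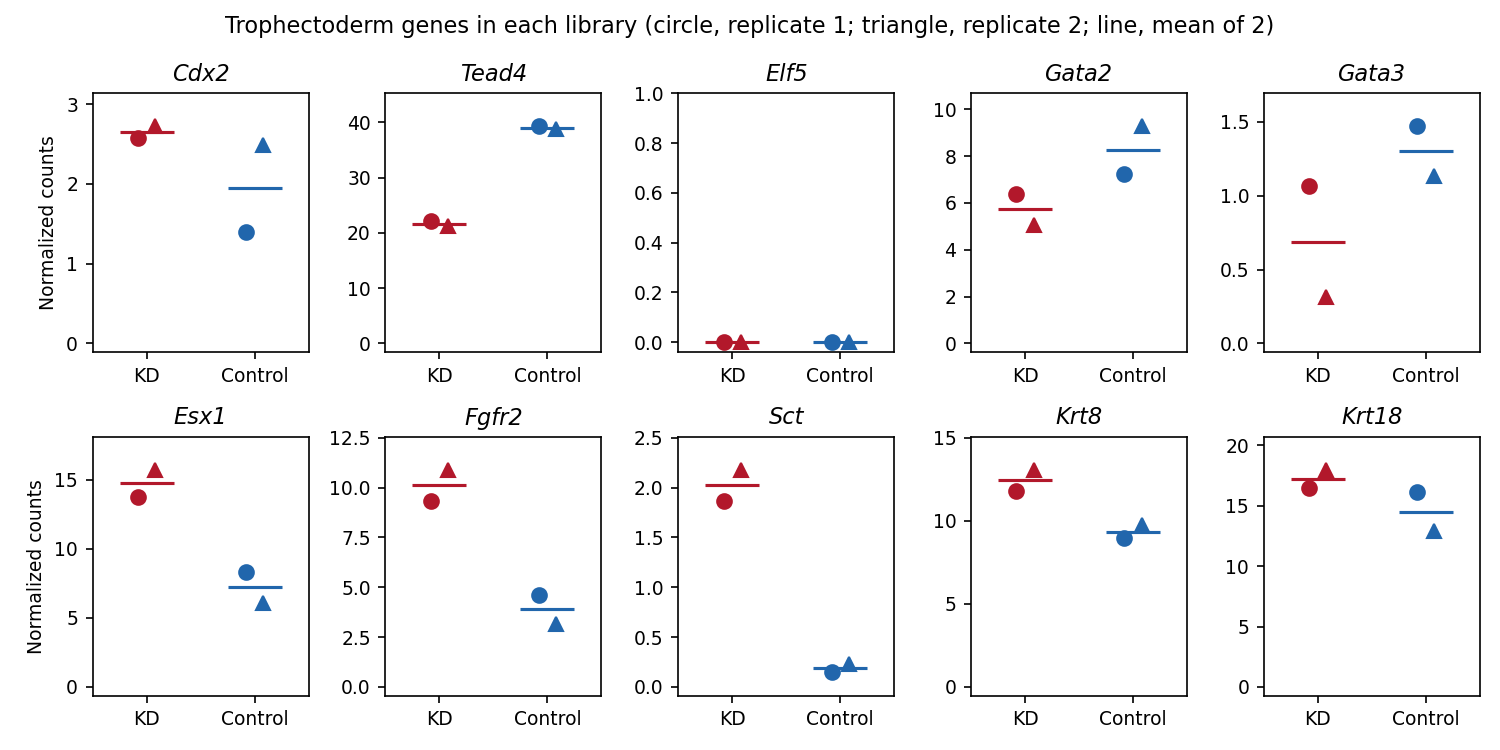
Normalized counts of the 10 trophectoderm genes in each library labelled knockdown (red) or control (blue), with lines at the means of 2 libraries; each panel has its own scale from 0. Tead4 sits at 22.1 and 21.2 in KD against 39.3 and 38.7 in control, Sct, Fgfr2 and Esx1 sit higher in KD, and Elf5 is at 0 in every library.

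**Figure D2:**
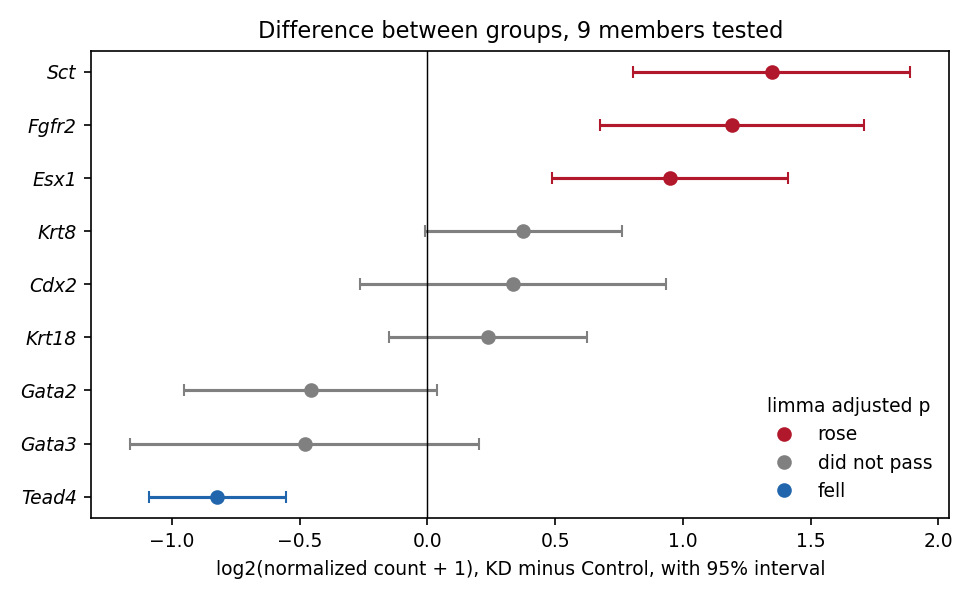
Difference of log2(normalized count + 1), KD minus Control, for the 9 members tested, with 95% intervals from limma. The intervals of Sct, Fgfr2 and Esx1 lie above 0 and that of Tead4 below it, while those of the other 5 include 0.

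Tead4 (ENSMUSG00000030353), the TEAD factor that opens the trophectoderm programme in the embryo, was the most precisely measured difference among the members. It lies on chromosome 6, from 128227143 to 128300813 on the minus strand (GRCm38.p6, RefSeq). Its level was 22.1 and 21.2 normalized counts in the libraries labelled KD, against 39.3 and 38.7 in those labelled control. The libraries within a group lay close together and the groups far apart. Tead4 fell 1.77-fold (log2 change -0.82, SE 0.11, limma adjusted p = 0.00616), and it passed under each of the 15 other settings tried, with log2 changes from -0.85 to -0.69. In the authors' deposited table, from the same 4 libraries, its log2 fold change was -0.85, with an adjusted p of 1.65e-07 (likelihood ratio test). By that test Sct, Fgfr2 and Esx1 had adjusted p-values of 5.28e-07, 9.44e-05 and 0.000449. No other member was below 0.05 there.

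Of the other TEAD genes, 1 rose and none fell in limma. Tead3 measured 12.8 and 14.3 normalized counts in the libraries labelled KD and 7.51 and 5.88 in those labelled control, and rose 1.9-fold (log2 change 0.93, SE 0.19, limma adjusted p = 0.0164). Tead1 and Tead2, named after their values were seen, did not pass, with log2 changes of 0.25 (unadjusted 95% interval 0.06 to 0.43, limma adjusted p = 0.0603) and 0.17 (95% interval -0.02 to 0.36, limma adjusted p = 0.166). Per kilobase of exon, Tead4 made up 12.3% and 12.0% of the summed TEAD level in the libraries labelled KD, against 22.1% and 22.8% in those labelled control. Tead2 held the largest share in all 4 libraries, at 64.0% and 63.7% in the libraries labelled KD and 58.7% and 57.9% in those labelled control.

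Cdx2 (ENSMUSG00000029646, chromosome 5, 147300900 to 147307249, minus strand), the homeobox factor that specifies the trophectoderm downstream of TEAD4, was at a low level in all libraries. It had 29 and 35 reads in the libraries labelled KD and 19 and 11 in those labelled control. These corresponded to 2.57 and 2.73 normalized counts in the libraries labelled KD, against 1.40 and 2.49 in those labelled control. Control 2 was thus close to the libraries labelled KD and Control 1 stood below them. Cdx2 did not pass (log2 change 0.34, 95% interval -0.26 to 0.93, limma adjusted p = 0.37). Its log2 change was 0.06 without Control 1 and 0.61 without Control 2, where it passed (limma adjusted p = 0.0367). A fit without a control library takes its spread from KD 1 and KD 2, the closer pair (median absolute log2 difference 0.0955, against 0.198 between the control libraries), and assumes that the lone control varies as they do. A pass in such a fit, here and for the genes below, is therefore easier to reach. This difference hung on which control library was kept.

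The GATA factors among the members, Gata2 and Gata3, which act with CDX2 in trophoblast cells, were lower in both libraries labelled KD, but neither passed. Gata2 (ENSMUSG00000015053, chromosome 6, 88193891 to 88207032, plus strand) measured 6.39 and 5.06 normalized counts in the libraries labelled KD and 7.21 and 9.28 in those labelled control (log2 change -0.46, 95% interval -0.95 to 0.04, limma adjusted p = 0.154). Without Control 1 it passed (log2 change -0.62, limma adjusted p = 0.0056), and without Control 2 its log2 change was -0.29. Gata3 (ENSMUSG00000015619, chromosome 2, 9857078 to 9887953, minus strand), which acts downstream of TEAD4 in the embryo, had 12 and 4 reads in the libraries labelled KD and 20 and 5 in those labelled control. At so few reads the ratio of the libraries labelled KD to those labelled control was 0.478, with a 95% exact interval of 0.238 to 0.931 that covers counting error only. Across libraries it did not pass (log2 change -0.48, 95% interval -1.16 to 0.20, limma adjusted p = 0.263), and the log2 change was -0.15 without KD 2. Antisense and neighbouring genes overlap Gata3 exons in the GENCODE M21 annotation, but they held at most 3 reads in a library.

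Elf5 (ENSMUSG00000027186, chromosome 2, 103412098 to 103450989, plus strand), an ETS factor of trophoblast stem cells whose promoter is known to be methylated in embryonic stem cells, had 0 reads in each of the 4 libraries and could not be tested. A count of 0 allows up to 3 reads, which is 0.266 and 0.234 normalized counts in the libraries labelled KD and 0.221 and 0.679 in those labelled control.

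Sct, Fgfr2 and Esx1 rose. The 250 bases before 1 RefSeq start site of each are shown because these are the members that rose (GRCm38.p6, 5′ to 3′ on the gene's strand). Capitals mark matches, on either strand, to motifs for GATA factors (AGATAA), TEAD factors (GGAATG) and CDX factors (TTTATNG), to the TATA box (TATAAA) and to the GC box (GGGCGG). These promoters lie at chr7:141279134-141279383 for Sct, chrX:137120327-137120576 for Esx1 and chr7:130266809-130267058 for Fgfr2, all on the minus strand. The Fgfr2 start site is the outer end of the gene. Those of Esx1 (137120326) and Sct (141279133) lie 1805 and 41 bases inside the RefSeq gene spans given below, which include models that start farther out, so these windows overlap the spans.
Sct: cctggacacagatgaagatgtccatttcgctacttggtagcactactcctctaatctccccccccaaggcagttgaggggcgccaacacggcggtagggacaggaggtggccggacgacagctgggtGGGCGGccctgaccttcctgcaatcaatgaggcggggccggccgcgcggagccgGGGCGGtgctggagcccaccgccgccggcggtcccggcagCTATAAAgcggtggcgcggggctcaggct
Esx1: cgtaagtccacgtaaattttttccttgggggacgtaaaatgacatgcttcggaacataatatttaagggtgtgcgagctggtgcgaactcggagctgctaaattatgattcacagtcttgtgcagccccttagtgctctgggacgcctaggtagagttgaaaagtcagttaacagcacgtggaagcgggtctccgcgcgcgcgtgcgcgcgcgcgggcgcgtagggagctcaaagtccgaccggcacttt
Fgfr2: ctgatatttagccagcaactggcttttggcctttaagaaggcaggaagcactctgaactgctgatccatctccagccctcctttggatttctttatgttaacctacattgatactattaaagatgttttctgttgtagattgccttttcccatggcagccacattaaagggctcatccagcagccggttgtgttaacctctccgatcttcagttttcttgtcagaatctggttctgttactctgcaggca
The Sct sequence holds 2 GC boxes and a TATA box, and the CDX match shares its letters with that TATA box. No letters of the 5 motifs stand in the Esx1 and Fgfr2 windows, which says nothing of what binds there. Among 32851 windows of the same length in the RefSeq table, 9.99% held the GATA letters, 12.6% the TEAD letters, 9.81% the CDX letters, 12.4% the TATA box and 32.7% the GC box. The windows differ widely in CpG dinucleotides, with 22 in Sct, 24 in Esx1 and 2 in Fgfr2, against a median of 6 over all windows. A window was present for 9 of the 10 members.

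Sct (ENSMUSG00000038580, chromosome 7, 141278329 to 141279174, minus strand) encodes secretin, a peptide hormone. It had 21 and 28 reads in the libraries labelled KD and 2 and 1 in those labelled control, which is 1.86 and 2.18 normalized counts under the KD label, against 0.147 and 0.226 under the control label. The groups were far apart, but the control level rests on 3 reads in all. The ratio of reads was 12.2 (95% exact interval 3.94 to 61.2, counting error only). Sct passed in limma (log2 change 1.35, SE 0.23, adjusted p = 0.0105), on a scale where the pseudocount of 1 outweighs its control level, and its log2 change was 0.66 with a pseudocount of 3 and 3.52 in edgeR's quasi-likelihood test on the recovered reads. At these counts a gene can clear the filter only by being higher in a group, as Sct was. It did not pass without KD 2 (limma adjusted p = 0.103).

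Fgfr2 (ENSMUSG00000030849, chromosome 7, 130162451 to 130266808, minus strand) encodes the receptor through which FGF4 sustains trophoblast stem cells. It measured 9.32 and 10.9 normalized counts in the libraries labelled KD, against 4.64 and 3.17 in those labelled control, from 105 and 140 reads under the KD label against 63 and 14 under the control label. Both libraries labelled KD stood at about the same level, above both controls. Fgfr2 rose 2.29-fold (log2 change 1.19, SE 0.22, limma adjusted p = 0.0128), with log2 changes of 1.41 without Control 1 and 0.98 without Control 2. It did not pass without KD 2 (limma adjusted p = 0.103). A GENCODE M21 transcript model of Fgfr2 runs on into Ctbp2, and 1.92% of the 100-base windows of its transcripts also occur in Ctbp2. Ctbp2 held 2039 and 2268 reads in the libraries labelled KD and 4202 and 1544 in those labelled control. These reads are not scaled for depth, and Control 2 was the shallowest library. The part of Ctbp2 reads in the Fgfr2 difference was not tested. The authors' annotation release is not given in the sources used here.

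Of 21 other FGF receptor, ligand and adaptor genes tested, 2 rose (9.52%, against 10.5% of all genes) and 19 did not pass, with a median log2 change of 0.22. Fgfr1, the main FGF receptor of embryonic stem cells, rose 1.41-fold to 141 ± 3.66 normalized counts in the libraries labelled KD, against 99.7 ± 6.54 in those labelled control (SD, n = 2 each, limma adjusted p = 0.0114). The ligand gene Fgf1 rose 1.73-fold (limma adjusted p = 0.0128). Fgf4, the ligand that the inner cell mass sends to the trophectoderm, and Fgfr4 were named after their values were seen and did not pass, with log2 changes of 0.11 (limma adjusted p = 0.541) and 1.21 (95% interval 0.19 to 2.24, limma adjusted p = 0.0849). Per kilobase of exon, Fgfr2 made up 4.94% and 5.36% of the summed level of the 4 FGF receptors in the libraries labelled KD, against 3.11% and 2.69% in those labelled control. Without Control 1 and Control 2 the median log2 change of this list was 0.29 and 0.22. Without KD 1 and KD 2 it was 0.26 and 0.16. Of these fits, those without a KD library called the fewest genes, in the list as over all genes.

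Esx1 (ENSMUSG00000023443, chromosome X, 137115397 to 137122131, minus strand) is a homeobox gene of the placental trophoblast. It measured 13.8 and 15.7 normalized counts in the libraries labelled KD and 8.32 and 6.11 in those labelled control. It was thus higher in both libraries labelled KD. Esx1 rose 1.93-fold (log2 change 0.95, SE 0.20, limma adjusted p = 0.0177). It did not pass without KD 1 (limma adjusted p = 0.0599) or without KD 2 (limma adjusted p = 0.16), at log2 changes of 1.04 and 0.86.

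The keratins, which polymerize as a pair of a type II protein (keratin 8) and a type I protein (keratin 18), were somewhat higher in the libraries labelled KD and did not pass. Krt8 (ENSMUSG00000049382, chromosome 15, 101996711 to 102004342, minus strand) measured 11.8 and 13.1 normalized counts in the libraries labelled KD, against 8.98 and 9.73 in those labelled control (log2 change 0.38, 95% interval -0.01 to 0.76, limma adjusted p = 0.136). It passed without Control 2 (limma adjusted p = 0.0338). Krt18 (ENSMUSG00000023043, chromosome 15, 102028216 to 102032026, plus strand), its neighbour, measured 16.4 and 18.0 normalized counts in the libraries labelled KD and 16.1 and 12.9 in those labelled control (log2 change 0.24, 95% interval -0.15 to 0.62, limma adjusted p = 0.325). It passed without Control 1 (limma adjusted p = 0.0243) and had a log2 change of 0.09 without Control 2. Per kilobase of exon, the level of Krt18 was 1.90 and 1.87 times that of Krt8 in the libraries labelled KD, against 2.45 and 1.81 times in those labelled control, so the ratio overlapped between groups. Of the 100-base windows of Krt8 transcripts, 17.1% also occur in Krt8-ps or in the antisense gene Gm36026, and the strand setting of the counting is not given in the sources used here, so its reads are uncertain.

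In the libraries labelled KD Krt18 stood highest, at a mean of 12.0 normalized counts per kilobase of exon, followed by Esx1 at 7.43, Krt8 at 6.36, Tead4 at 6.02 and Sct at 3.14. Cdx2, Gata2 and Fgfr2 followed there at 1.17, 1.06 and 0.979, and Gata3 at 0.173. In those labelled control Tead4 stood highest at 10.8, followed by Krt18 at 10.1, Krt8 at 4.78, Esx1 at 3.63, Gata2 at 1.53, Cdx2 at 0.860, Fgfr2 at 0.378, Gata3 at 0.327 and Sct at 0.290. Neighbours whose libraries overlapped were Krt8 with Tead4, Cdx2 with Gata2 and Gata2 with Fgfr2 in the libraries labelled KD. In those labelled control they were Tead4 with Krt18, Fgfr2 with Gata3 and Gata3 with Sct. The level of Fgfr2 per kilobase is uncertain. Its exon length includes the model that runs into Ctbp2, which lowers it, and the part of Ctbp2 reads in its count was not tested.

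**Figure D3:**
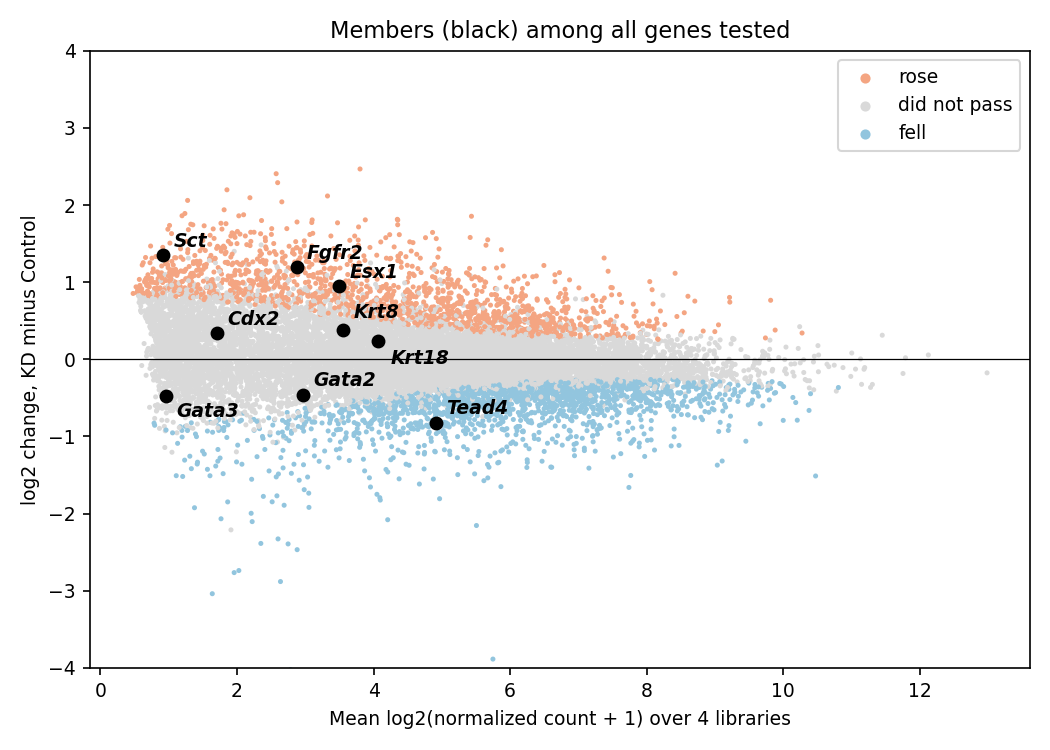
Mean log2(normalized count + 1) over the 4 libraries against the log2 change, KD minus Control, for the 14890 genes tested (orange, rose; blue, fell; grey, did not pass), with the 9 members tested in black. The members lie in the lower and middle range of levels, and the axis of change ends at 4 in either direction, which leaves out 1 gene.

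Other trophectoderm and trophoblast genes moved both ways. Of 33 matched, 26 were tested, 5 rose (19.2%, against 10.5% of all genes), 3 fell (11.5%, against 12.4%) and 18 did not pass, with a median log2 change of 0.39. Of the 26, 4 met the filter on low counts only through the libraries labelled KD and so had to be higher there, and 2 of these (Gcm1 and Cited1, named for this after their values were seen) are among the 5 that rose. With a mean of at least 1 normalized count required, 3 rose and the median was 0.22, and after thinning to the shallowest library the median was 0.16. Hand1, a factor of trophoblast giant cells, rose to 7.98 ± 1.37 normalized counts in the libraries labelled KD, against 2.15 ± 1.75 in those labelled control (SD, n = 2 each, 3.09-fold, limma adjusted p = 0.0262). Wnt7b, a Wnt ligand of the chorion, rose 2.13-fold (limma adjusted p = 0.0169), and Aqp3, a water channel, rose 1.92-fold (limma adjusted p = 0.034). Atp1b1, the beta subunit of the sodium pump that fills the blastocyst cavity, fell 1.62-fold to 150.5 ± 6.32 in the libraries labelled KD, against 245.8 ± 41.0 in those labelled control (limma adjusted p = 0.0109). Lgals3 fell 1.62-fold (limma adjusted p = 0.0201) and Cited2, a transcriptional coactivator needed for placental growth, fell 1.21-fold (limma adjusted p = 0.0487). The genes of the list with 0 reads in all 4 libraries were Tpbpa, Prl3d1, Prl2c2 and Synb, markers of later placental cells. Other such markers, named after their values were seen, did have reads. Syna had 14 and 18 reads in the libraries labelled KD and 14 and 4 in those labelled control. Gcm1 had 19 and 22 reads under the KD label and 8 and 0 under the control label. Without KD 1 and KD 2 the median log2 change of the list was 0.34 and 0.36. Without Control 1 and Control 2 it was 0.57 and 0.22. As over all genes, the fits without a KD library called the fewest of these. Without the variance trend, 2 rose and 1 fell.

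Genes of the Hippo pathway, which sets whether YAP reaches TEAD4, moved both ways too. Of 27 tested, 5 rose (18.5%, against 10.5% of all genes), 4 fell (14.8%, against 12.4%) and 18 did not pass, with a median log2 change of 0.13. Vgll4, a cofactor that competes with YAP for TEAD, rose 1.87-fold to 29.9 ± 2.63 normalized counts in the libraries labelled KD, against 15.6 ± 2.21 in those labelled control (limma adjusted p = 0.0101). Among upstream genes the kinase gene Taok2 rose 1.25-fold, while its relative Taok1 fell 1.49-fold and the kinase adaptors Mob1b and Mob1a fell 1.36-fold and 1.28-fold (limma adjusted p between 0.00809 and 0.0335). By library size only, 9 of the list rose and 1 fell, and without the variance trend 2 rose and 1 fell. Without KD 1 and KD 2 the median log2 change of the Hippo list was 0.14 and 0.11. Without Control 1 and Control 2 it was -0.003 and 0.13. Calls were again fewest without a KD library.

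Of 10 other GATA factor and cofactor genes tested, 4 rose (40.0%, against 10.5% of all genes) and 6 did not pass, with a median log2 change of 0.13. Tal1, a blood transcription factor that works with GATA factors, rose 2.53-fold to 13.4 ± 2.39 normalized counts in the libraries labelled KD, against 4.66 ± 0.450 in those labelled control (limma adjusted p = 0.00715). The GATA cofactor genes Zfpm1 and Ldb1 rose 1.92-fold and 1.23-fold (limma adjusted p = 0.00826 and 0.032). The other gene that rose, named after its values were seen, was Gata1 (1.75-fold, limma adjusted p = 0.0394). It had 29 and 40 reads in the libraries labelled KD and 17 and 5 in those labelled control. Without KD 1 and KD 2 the median log2 change of this list was 0.17 and 0.099, and fewer of its genes passed than with all libraries. Without Control 1 and Control 2 the median was 0.15 and 0.15. In DESeq2 2 of the list rose, and without the variance trend 3 rose. Of 23 other keratin, desmosome and junction genes tested, 3 rose (13.0%, against 10.5% of all genes) and 20 did not pass, with a median log2 change of 0.23. Of the 23, 1 met the filter on low counts only through the libraries labelled KD, and it was not among the 3. Krt7, a keratin of trophoblast, rose 2.24-fold at few reads (31 and 49 in the libraries labelled KD, 20 and 2 in those labelled control, limma adjusted p = 0.0369). Cdh1, the epithelial cadherin of both embryonic stem cells and trophectoderm, rose 1.69-fold (limma adjusted p = 0.00611) and Plec, a keratin linker, rose 1.36-fold (limma adjusted p = 0.0121). By library size only 7 of this list rose, and without the variance trend 1 rose. Its median log2 change was 0.23 and 0.19 without KD 1 and KD 2, and 0.33 and 0.08 without Control 1 and Control 2. The fits without a KD library called the fewest of the list.

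Of 12 inner cell mass factor genes, 7 fell (58.3%, against 12.4% of all genes) and 5 did not pass, with a median log2 change of -0.54. The 3 with the smallest p were Zfp42, Klf4 and Nr0b1 (limma adjusted p between 0.00256 and 0.00386). Markers of other cell types were measured beside the members. Of 17 primitive endoderm markers tested, 2 rose (Sparc and Col4a2, 11.8%, against 10.5% of all genes), with a median log2 change of 0.05. A further 2 fell (Lama1 and Lrp2, 11.8%, against 12.4%). Their summed level was 567 and 567 normalized counts in the libraries labelled KD and 515 and 539 in those labelled control, with Afp and Ttr at 0 reads. Of 14 fibroblast markers tested, 4 rose (28.6%, against 10.5% of all genes), with Cald1, Fbln1 and Col1a1 at the smallest p. Of the same 14, 1 fell (Fn1, 7.14%, against 12.4%). In both the endoderm and the fibroblast list, 1 gene met the filter on low counts only through the libraries labelled KD. It was not among those that rose. The median log2 change of the fibroblast markers was 0.57, the highest of the 8 lists and above the 0.34 of the members, and it was 0.30 with a pseudocount of 3 and 0.22 after thinning. Their summed level was 1369 and 1385 normalized counts in the libraries labelled KD and 1532 and 1399 in those labelled control, with Dcn, Lum and S100a4 at 0 reads. The part of these cells in the members' differences was not tested. Without KD 1 and KD 2 the median log2 change of the inner cell mass genes was -0.56 and -0.52. Without Control 1 and Control 2 it was -0.52 and -0.58. In the same order the median was 0.53, 0.46, 0.38 and 0.53 for the fibroblast markers. For the primitive endoderm markers it was 0.13, 0.08, -0.05 and 0.14. In each of these lists, as over all genes, the fits without a KD library called the fewest.

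**Figure D4:**
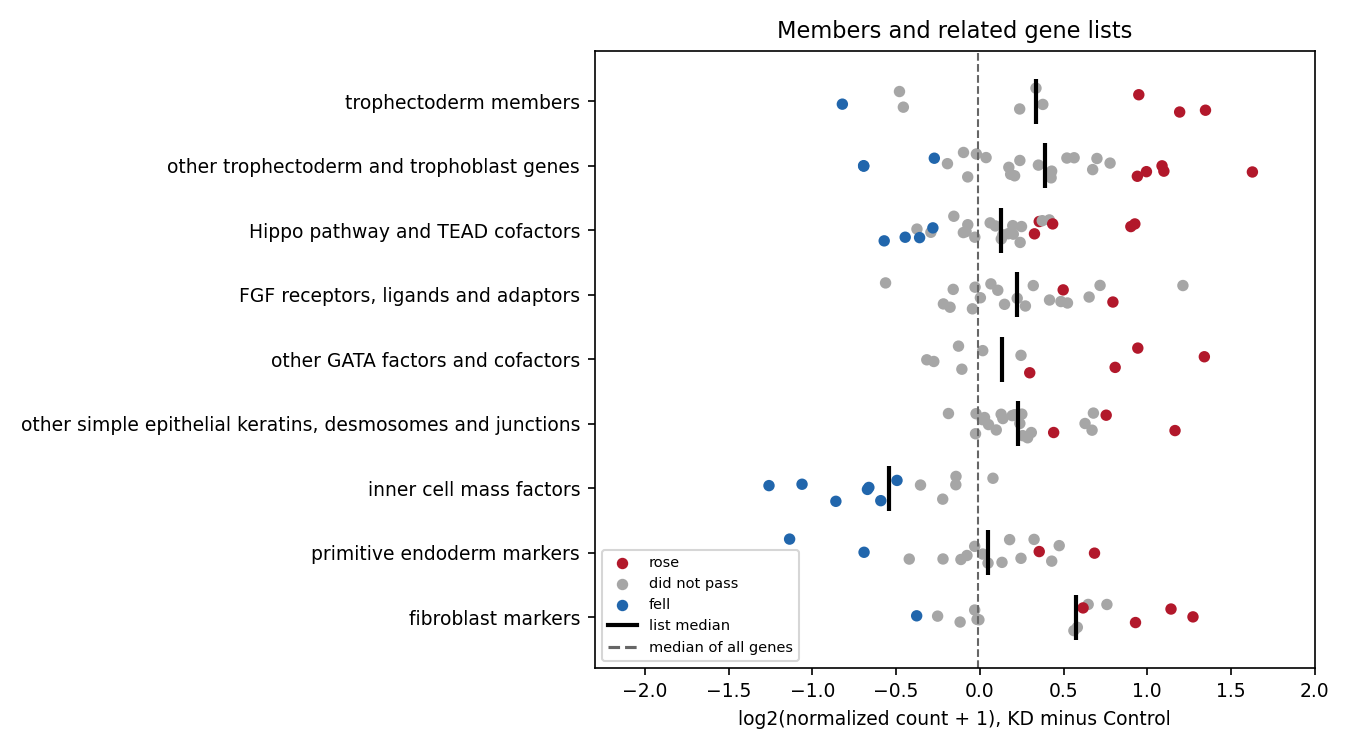
Differences of log2(normalized count + 1), KD minus Control, for the members and 8 related gene lists; each point is a gene tested (red, rose; blue, fell; grey, did not pass), black bars are list medians and the dashed line is the median of all genes. The members spread to both sides of 0 with a median of 0.34, and the inner cell mass factors lie lowest with a median of -0.54.

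Base composition moved with the differences across all genes. Among the fifth of genes highest in transcript GC content 19.3% rose and 5.81% fell, against 4.47% and 19.7% in the fifth lowest. Of the members tested, 5 lay in the fifth highest in GC (Cdx2, Tead4, Gata2, Sct and Krt8), 3 in the next (Gata3, Esx1 and Krt18), where 13.8% of genes rose and 9.03% fell, and Fgfr2 in the middle one, where 9.13% rose and 12.7% fell. Among genes second lowest in GC, with no member tested, 5.84% rose and 15.0% fell. Sct, which rose, and Tead4, which fell, both lay in the fifth where rises were most frequent and falls least frequent. The part of base composition in these differences was not tested.

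In the quasi-likelihood test of edgeR on the recovered reads, 12.0% of genes rose and 13.1% fell, and the 4 members called were Sct (adjusted p = 0.00531), Fgfr2 (0.0089), Esx1 (0.012) and Tead4 (0.00357). In DESeq2, where 7.04% rose and 9.12% fell, Fgfr2 (adjusted p = 0.00846), Esx1 (0.0149) and Tead4 (0.00073) were called, and Sct and Gata3 were given no adjusted p. Without KD 2, Tead4 alone of the 4 passed in limma.

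**Figure D5:**
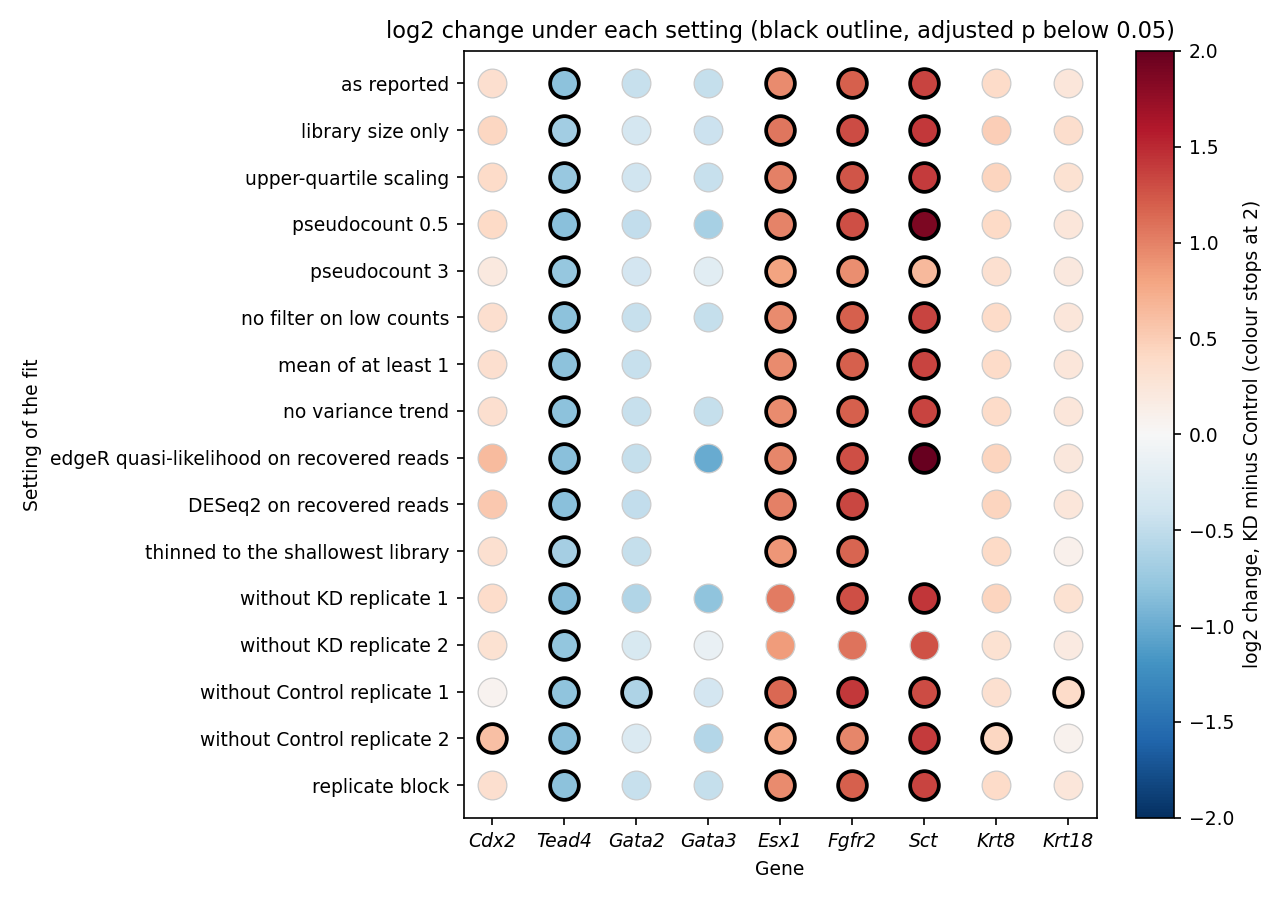
The log2 change, KD minus Control, of the 9 members tested as reported and under 15 other settings, as colour, with a black outline where the adjusted p was below 0.05; a missing point has no adjusted p. Tead4 is outlined in every row, and Sct, Fgfr2 and Esx1 lose the outline without KD replicate 2.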

How the data were processed

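Poly(A) RNA from 1 µg of total RNA per sample was sequenced with single-end reads of 100 bp, per the labels' protocols. The submitters' processing notes list Bowtie2 2.3.4.3, SAMtools 1.9, HTSeq 0.11.2, edgeR 3.26.8 and genome build mm9, without roles. The deposited signal holds reads per gene scaled by library: 100% of values came out as whole reads (tolerance 0.001), which were recovered. Per the file headers, the authors also deposited the log2 fold change, the log2 CPM averaged over libraries, the score of a likelihood ratio test, and the p-value before and after adjustment.

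Groups came from the sample titles. The main test was limma 3.58.1 in R 4.3.3 on log2(deposited signal + 1) with a variance trend, two-sided, over the 14890 genes kept by filterByExpr of edgeR 4.0.16, with Benjamini-Hochberg adjustment over all of them. Fold changes on this scale understate the change of low genes. With 2 libraries a group, the smallest p of an exact permutation test is 0.333; limma borrows variance from other genes. The alternatives were other scalings, pseudocounts, filters and tests (DESeq2 1.42.0 among them), thinning, leaving out each library and a replicate block; the code was tested on simulated data. Chi-square per degree of freedom on these reads was 1.95 between KD 1 and KD 2 and 12.8 between Control 1 and Control 2. Such values cannot tell separate cultures from repeated libraries of the same culture. Each library was kept as a sample of its own.

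The members and the 8 lists (174 of 175 entries matched) were chosen with earlier results of these data known. The genes named are all members and Eif4a2, and in each list up to 3 called genes per direction with the smallest p; exceptions are said to be so. Gene lengths and GC content came from GENCODE M21 by gene ID (32590 of 32592 matched), and member positions and promoter sequences from RefSeq (GRCm38.p6), a different build from mm9; none was converted. Intervals and floors on reads reflect counting error alone, because reads copied by PCR and lacking molecular identifiers are not independent molecules.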

Additional observations from a re-analysis of the deposited data

How the results depend on the processing

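Across 15 alternatives the log2 change of each member kept its sign. Tead4 passed in all of them, and the count of members that fell was 1 in each except without Control 1, where Gata2 passed too. Without each library in turn, from 0 to 5 members rose and from 1 to 2 fell. The 0 was without KD 2, where 3 members were higher at an unadjusted p below 0.05 in limma, and the 5 was without Control 2, where Cdx2 and Krt8 were added; without Control 1, Krt18 was added. Fits without a KD library take their spread from the control libraries, whose median absolute log2 difference was 0.198, against 0.0955 between KD 1 and KD 2, and fits without a control library take it from the KD libraries, so calls come more readily there. The log2 change ranged from 0.93 to 1.41 for Fgfr2, from 0.75 to 1.14 for Esx1 and from 0.66 to 3.52 for Sct. Sct had no value to test after thinning to the depth of Control 2, and Gata3 none after thinning or with a mean of at least 1, since they fell below those filters, and DESeq2 gave neither an adjusted p.

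Over all genes, 864 fell without a variance trend, 967 rose in DESeq2 and 996 fell with library size only; without each library in turn, from 259 to 3784 rose and from 394 to 3940 fell. With the replicate number as a block, 3 members rose and 1 fell, and 2252 genes rose and 2380 fell over all. The labels do not say that equal numbers mark a shared culture or day, and same-numbered libraries hardly deviated together (correlation 0.04 across genes). Depth limits Cdx2, Gata3, Elf5 and Sct, whose reads stayed at or below 35 in each library.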
